A study of Homo sapiens with 6 samples.

Results

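In ME-1 leukemia cells, 1157 regions of histone H3 lysine 27 acetylation (H3K27ac) were each called as 1 continuous region after DMSO and were crossed by 3 or more separate regions after AI-10-49. They were chosen from the H3K27ac list of DMSO as regions under 5000 bp wide that overlapped, by at least 1 bp, 3 or more regions of the H3K27ac list of AI-10-49. The DMSO list held 67087 regions, of which 66003 were under 5000 bp. Here they are called broken-up regions. A gap is the stretch between neighbouring AI-10-49 regions that overlap the same broken-up region, and a flank is what lies outside its first or last AI-10-49 region.

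ME-1 is an established human cell line of acute myeloid leukemia that carries inv(16), an inversion whose product is CBFβ-SMMHC, a fusion of CBFβ with a part of smooth muscle myosin. RUNX1 is a transcription factor of blood cell development and normally works with CBFβ, but is also bound by the fusion. AI-10-49, a small molecule, interferes with the contact between RUNX1 and the fusion. H3K27ac sits on nucleosomes of active promoters and enhancers. Transcription factors such as RUNX1 generally bind the open DNA between acetylated nucleosomes, where a histone precipitation gives less signal than on either side.

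The groups were RUNX1 and H3K27ac chromatin of cells in AI-10-49 (1 µM, 6 h) and the same 2 precipitations of cells in DMSO (6 h), all from ME-1. Each antibody and condition had 1 library with a peak list, 4 of the 6 libraries of the series, and the 2 input libraries were not used here directly. Differences between conditions therefore have no replicate check and carry no p-value. Intervals in parentheses are 95% intervals, exact Clopper-Pearson for shares and exact Poisson for fragment numbers and densities, and cover the sampling of regions or counting error only. Only interval ends and summits were used, so the depth of the acetylation signal inside a gap was not measured.

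The number of fragments over each summit was recovered from the deposited fold enrichment and p-value, and is given per M ChIP reads (M for mega, as in Mb). H3K27ac libraries held 37.0 M reads (AI-10-49) and 35.7 M (DMSO), and RUNX1 libraries 31.5 M and 33.8 M. The smaller library of each call, ChIP or background, was 0.812 times as large for AI-10-49 H3K27ac as for DMSO H3K27ac. In both of these calls it was the background, with 27.6 M reads (AI-10-49) and 34.0 M (DMSO), below the ChIP reads. The part of this difference in depth in the breaking up was not tested. The shortest H3K27ac region, taken as the fragment length, was 210 bp in AI-10-49 and 192 bp in DMSO. No list held neighbouring regions under 45 bp apart, so narrower interruptions cannot appear as gaps.

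Breaking up became more frequent with width. Of DMSO regions under 5000 bp, 1.75% met the rule, which is the share of all regions that the rule itself fixed. The share was 0.0440% below 1000 bp (20 of 45501 regions), 2.43% from there to 2000 bp (305 of 12541), 7.42% to 3000 bp (378 of 5096), 14.1% to 4000 bp (276 of 1961) and 19.7% to 5000 bp (178 of 904). In the opposite direction, 479 AI-10-49 regions under 5000 bp overlapped 3 or more DMSO regions, or 0.732% of 65451. From 1000 bp upwards DMSO regions over several AI-10-49 regions were the more frequent kind in every width class. This is a description only, because the rule counts the same overlaps and 1 library stood for each condition. The share rose with width in the opposite direction too, from 0.0439% below 1000 bp to 8.68% from 4000 bp. A wider region has more room for 3 AI-10-49 regions, which were at least 210 bp wide and 45 bp apart. The part of this room in the rise with width was not tested.

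**Figure D1:**
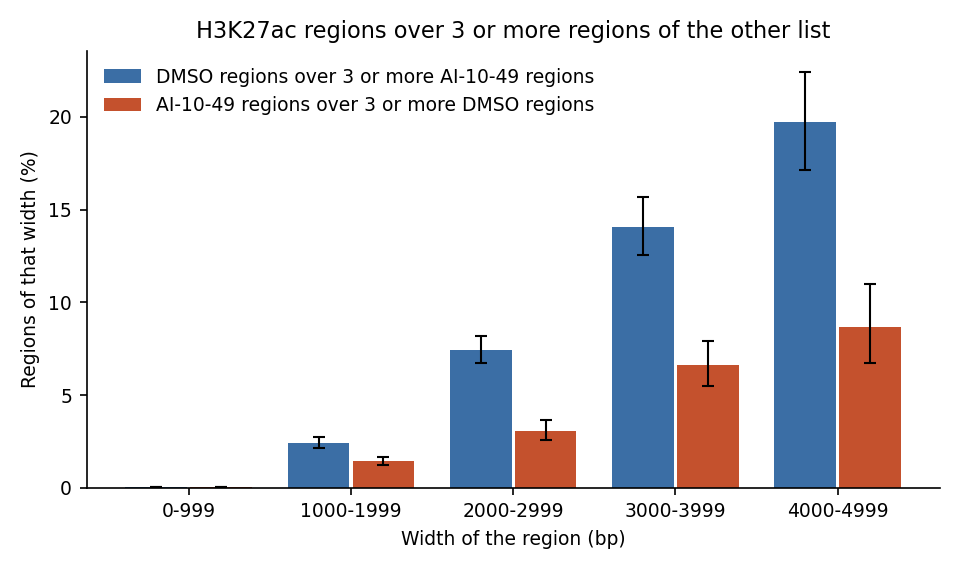
Share of H3K27ac regions of each width (horizontal axis, bp) that overlap 3 or more regions of the other list (vertical axis, percent), for DMSO regions (blue) and AI-10-49 regions (orange), with exact 95% intervals as bars. From 4000 bp to below 5000 bp the shares are 19.7% and 8.68%.

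Most broken-up regions were crossed by exactly 3 AI-10-49 regions (978, or 84.5%), while 147 had 4, 28 had 5 and 4 had 6. Their widths ran from 599 to 4993 bp with a median of 2652 bp. Just inside the width limit lay a region of 4993 bp in 12p13.32 with 4 AI-10-49 regions and one of 4985 bp in 15q21.2 with 3. Just outside lay regions of 5000 bp in 15q26.3 and 5005 bp in 2p15, each with 3. In 735 of the 1157 the first or last AI-10-49 region extended past the end of the DMSO region, and in 258 an AI-10-49 region also overlapped another DMSO region. AI-10-49 regions covered 76.6% of the broken-up bases, gaps 14.3% and flanks 9.03%.

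Acetylation over the summits is described without a test, because the same contrast chose the regions. The best AI-10-49 summit of a broken-up region held a median of 1.38 fragments per M reads (quartiles 0.973 and 2.22), and the DMSO summit 2.41 (1.46 and 3.89). The median ratio of the best AI-10-49 summit to the DMSO summit was 0.611 (quartiles 0.482 and 0.765), and it was above 1 in 112 regions. In 889 of 1157 the best AI-10-49 region lay wholly inside the broken-up region, and in 63 the best AI-10-49 summit itself lay outside it. With AI-10-49 summits inside the broken-up region alone, an alternative chosen after seeing the data, the median ratio was 0.607 (quartiles 0.477 and 0.748) and it was above 1 in 79 regions. In 695 (60.1%) the best AI-10-49 summit held 1/1.5 of the DMSO value or less, against 28.6% over all 46523 DMSO regions under 5000 bp with at least 1 AI-10-49 region. Regions with 2 AI-10-49 regions had a median ratio of 0.711 and regions with 1 had 0.886. In 7258 of the 38358 regions with 1, the AI-10-49 summit lay outside the DMSO region. With inside summits alone the medians were 0.689 (2) and 0.808 (1), closer to the 0.607 of broken-up regions. The shares at 1/1.5 or less were then 61.5% in broken-up regions and 33.9% over all 39016 with such a summit. Over all summits again, broken-up regions with 5 or 6 AI-10-49 regions had a median ratio of 0.488, those with 4 had 0.574 and those with 3 had 0.620.

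The AI-10-49 regions of 1 broken-up region were unequal. The weakest held a median of 0.441 times the fragments of the best one. Over all 3686 pairs of a broken-up region and an AI-10-49 region, the median AI-10-49 region was 505 bp wide and held 0.784 fragments per M reads. In 880 of 1157 (76.1%) the DMSO summit lay inside the AI-10-49 region with most fragments, so the tallest point of the DMSO region was mostly also in the tallest AI-10-49 region.

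The 1157 regions had 2529 gaps. Gaps were narrow, with a median of 130 bp, quartiles of 75 and 218 bp and a range from 45 to 1796 bp. Of these, 960 (38.0%) were under 100 bp wide, 810 (32.0%) were 100 bp to below 200 bp, 552 (21.8%) were 200 bp to below 400 bp and 207 (8.19%) were wider. The sum of gaps in a region had a median of 322 bp, or 12.9% of its width.

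Along the region, gap midpoints were spread nearly evenly, except close to the ends. Each stretch of 10% of the width between 10% and 90% held 262 to 304 gap midpoints, and the outermost stretches held 137 and 139. The summit itself was spared. Only 29 DMSO summits (2.51%, 1.68 to 3.58) fell in a gap, 10 fell in a flank and 1118 in an AI-10-49 region. Gaps made up 5.95% of the bases within 200 bp of the DMSO summit, 19.6% of those from 200 bp to below 400 bp, 15.1% from there to below 800 bp and 14.9% farther out. The nearest gap began a median of 287 bp from the summit (quartiles 178 and 521 bp), and of these 4 distance classes that from 200 bp to below 400 bp had the largest gap share.

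**Figure D2:**
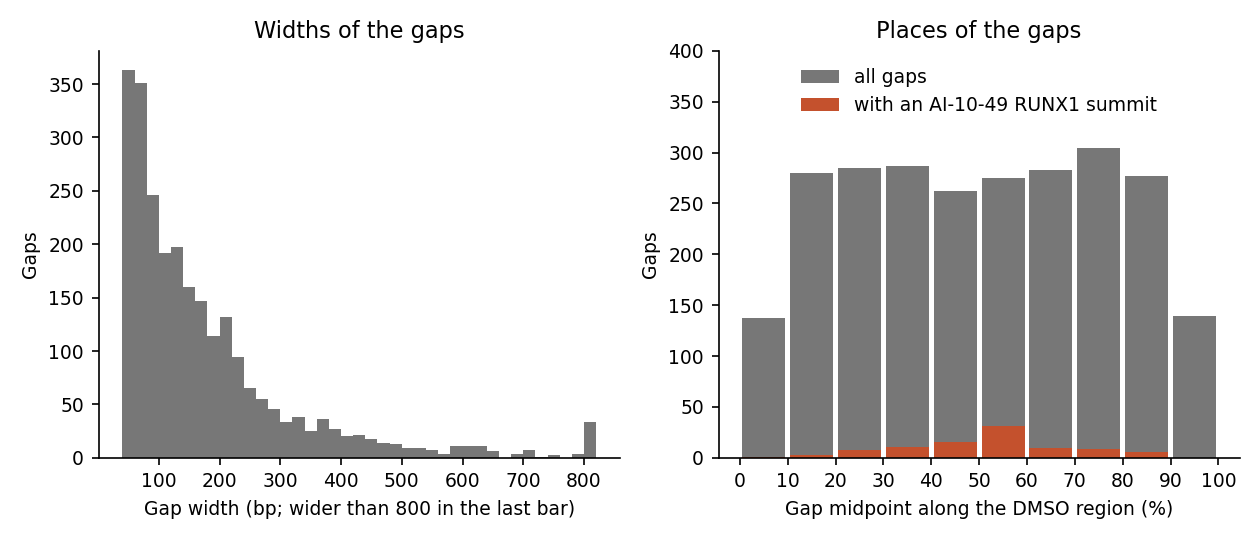
Left, number of gaps (vertical axis) by width (horizontal axis, bp, with gaps over 800 bp in the last bar). Right, number of gaps by the place of their midpoint along the DMSO region (horizontal axis, percent of its width), for all 2529 gaps (grey) and the 95 with an AI-10-49 RUNX1 summit (orange), which are most frequent at 50% to 60% with 31 gaps.

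RUNX1 summits lay in gaps at a higher share than the gaps' share of the bases. The AI-10-49 RUNX1 list had 304 summits inside broken-up regions, of which 96 lay in a gap (31.6%, 26.4 to 37.1), 206 in an AI-10-49 region and 2 in a flank. The DMSO RUNX1 list had 52 summits there, with 24 in a gap (46.2%, 32.2 to 60.5), 28 in an AI-10-49 region and 0 in a flank. Both shares stood above the 14.3% of bases that gaps took, by 2.21 times for AI-10-49 and 3.22 times for DMSO, and neither interval reached it. RUNX1 lists had no part in choosing the regions. The lists differed in length, with 10319 peaks in AI-10-49 and 1701 in DMSO.

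Counted by region, 93 broken-up regions (8.04%, 6.54 to 9.76) had an AI-10-49 RUNX1 summit in a gap and 24 (2.07%, 1.33 to 3.07) had a DMSO summit in one. These counts move with the lengths of the lists. With the AI-10-49 list shortened to its 1701 peaks of highest −log10 q, the direction turned, and 16 regions (1.38%) had an AI-10-49 summit in a gap, against 24 for DMSO. Either list placed a summit in a gap of 99 regions (8.56%, 7.01 to 10.3), and both lists did in 18. Counted by gap, 95 of 2529 (3.76%, 3.05 to 4.57) held an AI-10-49 summit and 24 (0.949%, 0.609 to 1.41) a DMSO summit, 17 of them the same gaps. In DMSO regions with exactly 2 AI-10-49 regions, 6.62% of gaps held an AI-10-49 summit and 0.913% a DMSO summit. Per gap, the share for AI-10-49 was thus lower in broken-up regions, with intervals that did not meet, and that for DMSO was near this background. Broken-up regions have several gaps each, while the others have a single one. Per region the order was the other way, with 8.04% against 6.62% (6.05 to 7.23) for AI-10-49, where the intervals met. For DMSO it was 2.07% against 0.913% (0.704 to 1.16), where they did not meet. Most gaps, 2427 of 2529, held no listed RUNX1 summit.

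Summits of the AI-10-49 RUNX1 list that were called inside an AI-10-49 H3K27ac region often lay beside a gap. Of the 206 AI-10-49 summits there, 84 were within 100 bp of a gap. Together, 153 of 304 AI-10-49 summits (50.3%, 44.6 to 56.1) were in a gap or within 50 bp of one, a zone of 22.2% of the bases. For 100 bp the share was 59.2% (53.5 to 64.8) in 29.9% of the bases. Of the DMSO summits, 26 of 52 (50.0%) were in the 50 bp zone and 30 (57.7%, 43.2 to 71.3) in the 100 bp zone. Both counts include the 24 in a gap itself. Of the 28 DMSO summits in an AI-10-49 region, only 6 were within 100 bp of a gap.

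The share of positions in a gap was high around RUNX1 summits and fell below the 14.3% of all bases on both sides. At 400 bp to the left and right of AI-10-49 summits it was 6.04% and 5.35%, against 31.6% at the summit. Around DMSO summits the same places lay in a gap at 3 of 52 and 2 of 50 summits, against 46.2% at the summit. The highest share for AI-10-49 was 34.3%, at 25 bp to the right of the summit, and that for DMSO was at the summit itself. For AI-10-49 the share stood above 14.3% from 125 bp to the left to 125 bp to the right, and for DMSO from 150 bp to the left to 125 bp to the right. It passed 14.3% again far from the summit, at 950 to 1000 bp to the left for AI-10-49 and at 850 to 1000 bp to the right for DMSO, among other places, where fewer positions lay inside the region.

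**Figure D3:**
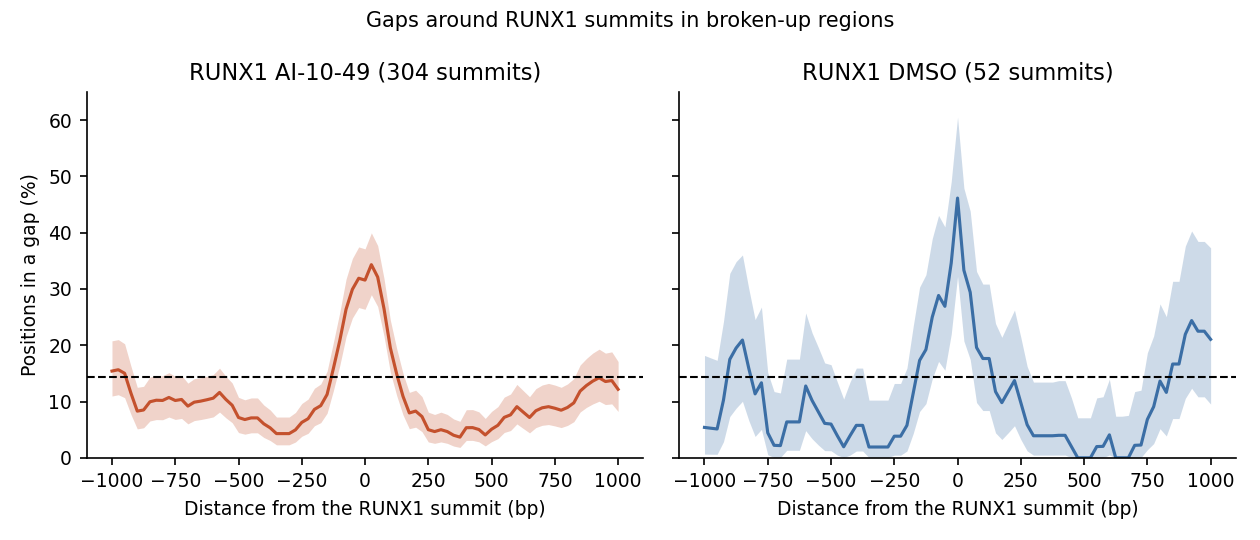
Share of positions that lie in a gap (vertical axis, percent, with exact 95% intervals shaded) by distance from RUNX1 summits inside broken-up regions (horizontal axis, bp), for the AI-10-49 list (left, 304 summits) and the DMSO list (right, 52 summits). Positions outside the region were left out, and the dashed line is the 14.3% of all bases in gaps. Both curves are highest within 25 bp of the summit.

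The shares were also set against bases at the same distance from the DMSO H3K27ac summit or in the same part of the region. From 200 bp to below 400 bp from the DMSO H3K27ac summit, 62 of 166 AI-10-49 RUNX1 summits lay in a gap (37.3%, 30.0 to 45.2), where gaps took 19.6% of the bases. From 400 bp to below 800 bp it was 21 of 64 (32.8%, 21.6 to 45.7) against 15.1%, and farther out 12 of 39 (30.8%, 17.0 to 47.6) against 14.9%. Within 200 bp, 1 of 35 did (2.86%, 0.0723 to 14.9), against 5.95% of the bases. In the middle 50% of the regions 33.5% (27.6 to 39.8) of 245 AI-10-49 summits were in a gap, against 17.0% of the bases. DMSO summits were fewer, with 12 of 29 in a gap from 200 bp to below 400 bp (41.4%, 23.5 to 61.1), 6 of 10 in the next class (26.2 to 87.8) and 5 of 9 farther out (21.2 to 86.3). In the 3 classes from 200 bp outwards the intervals of both lists lay above the share of bases. Within 200 bp they included it, with 1 of 4 DMSO summits in a gap.

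Widths of gaps with and without RUNX1 overlapped widely. Gaps with an AI-10-49 summit had a median of 162 bp (quartiles 120 and 214 bp), and those with a DMSO summit 144 bp. Those with neither had 129 bp (73 and 218.5 bp). An AI-10-49 summit lay in 15 of 960 gaps under 100 bp (1.56%, 0.877 to 2.56), in 53 of 810 of 100 bp to below 200 bp (6.54%, 4.94 to 8.47), in 18 of 552 of 200 bp to below 400 bp (3.26%, 1.94 to 5.10) and in 9 of 207 wider ones (4.35%, 2.01 to 8.09). Per length, gaps of 100 bp to below 200 bp had 45.4 AI-10-49 summits per 100 kb, against 23.1 in narrower gaps, 12.1 in those of the next width class and 7.98 in the widest. Per length, the widest gaps thus had the fewest AI-10-49 summits of the 4 classes. These densities are given without intervals. In DMSO regions with exactly 2 AI-10-49 regions they were 61.8, 58.6, 31.9 and 11.1 from the narrowest class to the widest, with no peak at 100 bp to below 200 bp. DMSO summits lay in 3 gaps of the narrowest class, 16 of the next, 4 of the third and 1 of the widest, so both lists were most frequent in the same class.

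Within a gap, AI-10-49 RUNX1 summits lay a median of 30.5 bp from its centre and 41 bp from its nearer edge, and DMSO summits 46.8 bp and 21 bp. AI-10-49 H3K27ac beside these gaps was comparatively high. The lower of the neighbouring AI-10-49 summits held a median of 0.946 fragments per M reads beside gaps with an AI-10-49 RUNX1 summit and 0.649 beside gaps with none, and the higher one 1.60 and 1.11. Gaps with RUNX1 also lay close to the DMSO H3K27ac summit, at a median of 259 bp (quartiles 208 and 397 bp), against 641 bp (280 and 1123 bp) for gaps without. This closeness was not particular to gaps. Of all 304 AI-10-49 RUNX1 summits in broken-up regions, 35 lay within 200 bp of the DMSO H3K27ac summit and 166 from there to below 400 bp. The part of this closeness in the H3K27ac beside the gaps was not tested.

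Per length, RUNX1 summits were denser in gaps than in the AI-10-49 regions of the same broken-up regions. For the AI-10-49 list there were 21.1 summits per 100 kb of gap (17.1 to 25.7), 8.44 per 100 kb of AI-10-49 region (7.33 to 9.68) and 0.695 per 100 kb of flank (0.0842 to 2.51). For DMSO the values were 5.26 (3.37 to 7.83), 1.15 (0.762 to 1.66) and 0, which allows up to 1.28.

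Regions with exactly 2 AI-10-49 regions showed an excess in gaps too. They numbered 7008, with 1 gap each, and 464 of these gaps held an AI-10-49 RUNX1 summit and 64 a DMSO summit. Of the AI-10-49 summits inside those regions 27.3% (25.2 to 29.5) lay in the gap, which took 9.01% of the bases, and of the DMSO summits 26.4% (21.0 to 32.5). Their gaps had 40.8 AI-10-49 summits per 100 kb (37.2 to 44.7), above the 21.1 of broken-up regions, whose interval did not meet it. In the opposite direction, gaps lay between DMSO regions under 1 AI-10-49 region and took 14.3% of the bases. There 21 of 95 AI-10-49 summits (22.1%, 14.2 to 31.8) and 3 of 7 DMSO summits (9.90 to 81.6) lay in a gap. Both intervals include the share of bases, that of AI-10-49 only at its lower end. At 400 bp to the left and right of these AI-10-49 summits, 2 of 92 and 1 of 93 positions lay in a gap. The share was thus high at the summit and low beside it here too.

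The 347 regions of 5000 bp or more with 3 or more AI-10-49 regions differed. There 25 of 332 AI-10-49 summits (7.53%, 4.93 to 10.9) lay in a gap, against 31.6% in broken-up regions, and 2 of 50 DMSO summits (0.488 to 13.7), against 46.2%. Gaps took 7.44% of their bases. Intervals of the shares did not meet for either list. In these wide regions the density of AI-10-49 summits was 12.0 per 100 kb of gap and 12.3 per 100 kb of AI-10-49 region. By gap width it was 50.8 below 100 bp (11 gaps with a summit) and 21.7 from there to below 200 bp (9 gaps). It was 6.99 to below 400 bp (4 gaps) and 1.13 in wider gaps (1 gap), so the pooled value hides a fall with width.

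**Figure D4:**
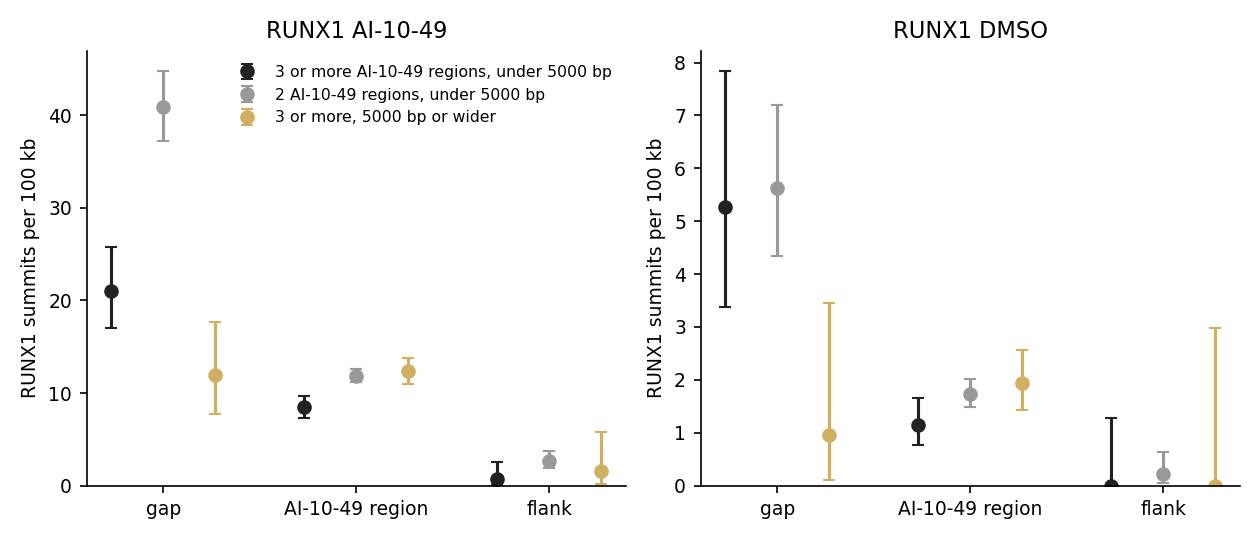
RUNX1 summits per 100 kb (vertical axis, with exact Poisson 95% intervals) in gaps, AI-10-49 H3K27ac regions and flanks, for the AI-10-49 (left) and DMSO (right) RUNX1 lists, on separate scales. Black marks broken-up regions, grey DMSO regions with 2 AI-10-49 regions, and yellow regions of 5000 bp or more with 3 or more. Gaps of all widths are pooled. In black and grey, gaps stand above AI-10-49 regions (21.1 against 8.44 in black for AI-10-49), while yellow shows no such step in the pooled values.

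As whole intervals of 1000 bp or more, broken-up regions held AI-10-49 RUNX1 less often than regions of their width class with 1 or 2 AI-10-49 regions. An AI-10-49 summit lay in 275 of 1157 (23.8%, 21.3 to 26.3), against 9.28% of all DMSO regions under 5000 bp, and a DMSO summit in 51 (4.41%, 3.30 to 5.76), against 1.52%. Broken-up regions were wider than most, with a median of 2652 bp against 538 bp over all. From 1000 bp to below 2000 bp an AI-10-49 summit lay in 11.8% (8.41 to 16.0) of broken-up regions, 17.9% (16.5 to 19.3) of regions with 2 AI-10-49 regions and 17.7% (16.9 to 18.5) of regions with 1. In the next class, to below 3000 bp, it lay in 87 of 378 broken-up regions (18.9 to 27.6), 32.7% (30.3 to 35.1) of regions with 2 AI-10-49 regions and 39.8% (38.1 to 41.5) of regions with 1. To below 4000 bp the shares were 31.9% (26.4 to 37.7), 48.6% and 53.0% (50.0 to 56.1), and to below 5000 bp 35.4% (28.4 to 42.9), 55.6% and 61.7% (56.9 to 66.3). In these 4 classes the interval of broken-up regions lay below those of regions with 2 and with 1. Below 1000 bp the order was the other way, with 1 of 20 broken-up regions (0.127 to 24.9) against 2.11% of regions with 1, whose share lay inside that interval. Regions with 0 AI-10-49 regions held an AI-10-49 summit less often than broken-up ones, in 7.59% (5.18 to 10.7) from 1000 bp to below 2000 bp and in 2 of 18 (1.38 to 34.7) in the next class, with intervals that met those of broken-up regions. The DMSO H3K27ac summits of broken-up regions were also lower, with medians of 2.41, 3.14 and 4.09 fragments per M reads in the 3 classes from 2000 bp, against 4.17, 5.04 and 5.69 in regions with 1, and the part of that difference was not tested. For DMSO RUNX1 the shares of broken-up regions and regions with 1 were 2.62% (1.14 to 5.10) against 3.02% (2.67 to 3.40) from 1000 bp and 4.76% (2.85 to 7.42) against 5.64% (4.87 to 6.50) from 2000 bp. They were 3.62% (1.75 to 6.56) against 8.08% (6.50 to 9.89) from 3000 bp and 8.43% (4.79 to 13.5) against 9.70% (7.08 to 12.9) from 4000 bp. The share was lower in broken-up regions in each of these 4 classes, and the intervals met in each, by little from 3000 bp.

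The strength of RUNX1 sites in gaps overlapped widely with that of the list they came from. AI-10-49 summits in gaps held a median of 1.24 fragments per M reads (quartiles 0.793 and 1.86), those in AI-10-49 H3K27ac regions 1.08 (0.793 and 1.65), and the whole AI-10-49 list 1.05 (0.793 and 1.55). DMSO summits in gaps held 0.799 (0.674 and 1.17), those in AI-10-49 H3K27ac regions 0.888 (0.711 and 1.12), and the whole DMSO list 0.918.

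Most RUNX1 sites in gaps were listed after AI-10-49 only. Of the 96 AI-10-49 summits in gaps, 78 (81.2%, 72.0 to 88.5) belonged to a peak that overlapped no DMSO RUNX1 peak, against 178 of 206 (86.4%) in AI-10-49 H3K27ac regions and 85.1% of the whole list. Of the 24 DMSO summits in gaps, 21 belonged to a peak that overlapped an AI-10-49 RUNX1 peak, and in 17 the paired AI-10-49 summit lay in the same gap. At these 21 sites the ratio of AI-10-49 to DMSO fragments per M reads had a median of 2.38 (quartiles 1.68 and 3.71). It was at least 1.5 at 18 of the 21 (85.7%, 63.7 to 97.0) and at 21 of 26 paired sites (80.8%, 60.6 to 93.4) in AI-10-49 H3K27ac regions, against 76% of all 1551 paired DMSO sites. Sites in gaps were therefore near the background of the whole list in both respects. The shortest RUNX1 region was 1.13 times as long in AI-10-49 as in DMSO, and the part of fragment length in these ratios was not tested.

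Broken-up regions with an AI-10-49 RUNX1 summit in a gap had a median ratio of best AI-10-49 to DMSO H3K27ac summit of 0.523 (quartiles 0.437 and 0.646, 93 regions). Those with a summit elsewhere only had 0.581 (0.469 and 0.707, 182 regions), and those with none 0.627 (0.493 and 0.790, 882 regions). These spreads overlapped widely. The share with an AI-10-49 summit in a gap was 18.8% (7.21 to 36.4) at 5 or more AI-10-49 regions, 10.2% (5.82 to 16.3) at 4 and 7.36% (5.80 to 9.18) at 3, with overlapping intervals.

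Single regions were named for the rank of their RUNX1 peaks in a gap, of their H3K27ac or of their gaps, so a RUNX1 summit in a gap was fixed by the choice for those of the first kind and is given as a description. Naming by the rank of a peak in 1 list also favours a higher value in that list. Contrasts of RUNX1 strength at those sites are therefore descriptions too. All positions are 1-based in hg19, and fold enrichments are the authors' own. Genes were not assigned to regions, so exonic, intronic and promoter positions are not given. Where a band's known gene is mentioned, it serves only to orient, and no region is thereby placed at it. The region with 3 RUNX1 summits in 2p16.2, chr2:54797303-54802286, had 4 AI-10-49 H3K27ac regions with 0.838, 1.35, 1.51 and 0.730 fragments per M reads at their summits, against 3.59 (2.99 to 4.26) at the single DMSO summit. Its first gap, chr2:54798234-54798335, was 102 bp wide and held the summits of both RUNX1 lists, with 3.52 (2.90 to 4.24) fragments per M reads in AI-10-49 and 1.48 (1.10 to 1.95) in DMSO. The authors' fold enrichment there was 24.5 in AI-10-49 and 8.54 in DMSO. The third gap, chr2:54801657-54801765, of 109 bp, held an AI-10-49 summit with 1.24 (0.880 to 1.69) and no DMSO summit. At the first gap the AI-10-49 interval of RUNX1 thus lay above the DMSO interval, in a region named for its RUNX1 peaks of both lists.

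The region in 16q24.3, chr16:89022357-89025925, had 3 AI-10-49 H3K27ac regions with 0.730, 1.27 and 1.27 fragments per M reads, against 2.35 (1.88 to 2.91) in DMSO. The band includes CBFA2T3, which encodes a corepressor of the ETO family. Its second gap, chr16:89024752-89024906, of 155 bp, held a RUNX1 summit with 2.67 (2.13 to 3.30) fragments per M reads in AI-10-49 and 0.533 (0.316 to 0.842) in DMSO. A second DMSO RUNX1 summit of 0.562 (0.339 to 0.878) lay in an AI-10-49 H3K27ac region and overlapped no AI-10-49 RUNX1 peak. At the gap the AI-10-49 interval thus lay above the DMSO interval, in a region named for its AI-10-49 RUNX1 peak.

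In 10q26.3, chr10:135070729-135073609 had AI-10-49 H3K27ac summits of 0.541, 2.70 and 1.22 fragments per M reads, against 6.19 (5.40 to 7.06) in DMSO. The gap chr10:135072902-135072960 was only 59 bp wide and held the summits of both RUNX1 lists, with 4.51 (3.79 to 5.31) in AI-10-49 and 1.48 (1.10 to 1.95) in DMSO. That AI-10-49 RUNX1 site had the most fragments of all 96 in gaps. A second region of the same band, chr10:135120733-135124202, had 5 AI-10-49 regions, and its RUNX1 summit (0.920 in AI-10-49, none in DMSO) lay inside one of them.

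**Figure D5:**
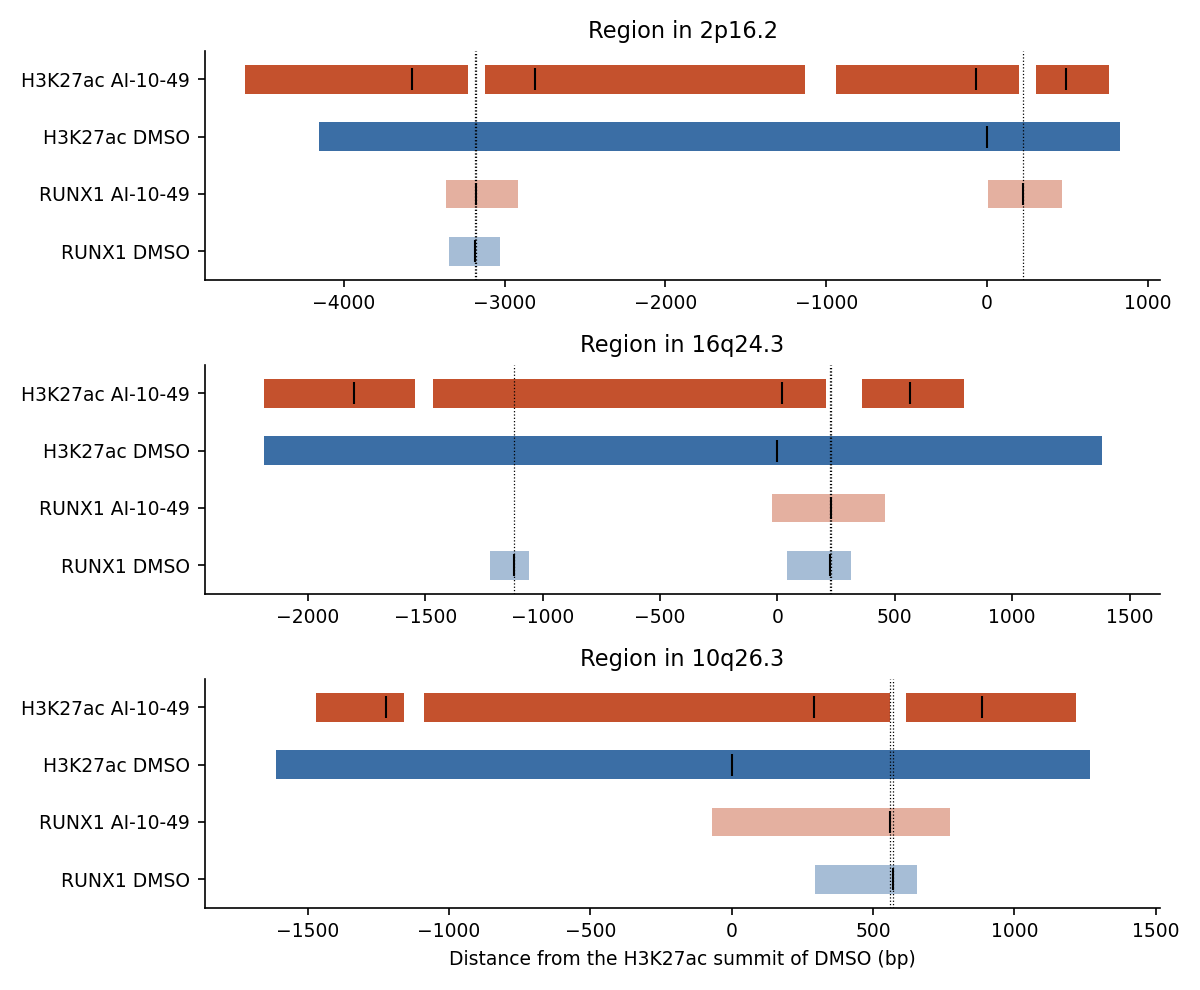
Maps of the broken-up regions of 2p16.2, 16q24.3 and 10q26.3, the named regions with most RUNX1 summits (the last chosen among several with 2 by the −log10 q of its RUNX1 peak). Bars are called regions, vertical ticks their summits, and dotted lines carry RUNX1 summits upwards (horizontal axis, bp from the H3K27ac summit of DMSO). In each map a RUNX1 summit of both lists meets a gap between AI-10-49 H3K27ac regions.

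The other regions named for the highest-ranked RUNX1 peaks in gaps fell into those with a site in both lists and those with one in AI-10-49 only. In 2p25.1, the band of the differentiation inhibitor gene ID2, chr2:8441609-8443763 had a RUNX1 summit in its first gap of 143 bp, with 3.01 (2.44 to 3.68) fragments per M reads in AI-10-49 and 1.04 (0.722 to 1.44) in DMSO. In 12q23.3, the second gap of chr12:104911057-104914683 (125 bp) held 2.63 in AI-10-49 (83 fragments) and 0.503 (0.293 to 0.806) in DMSO (17 fragments). In 20p13, the second gap of chr20:1599845-1601843 (95 bp) held 2.73 (2.18 to 3.37) and 1.24 (0.896 to 1.68). At these 3 sites the AI-10-49 interval lay above the DMSO interval, and the authors' fold enrichment was also higher in AI-10-49, with 19.4 against 4.98 in DMSO in 2p25.1, 20.8 against 4.52 in 12q23.3 and 8.47 against 6.95 in 20p13. The 2p25.1 and 12q23.3 regions were named for their AI-10-49 RUNX1 peak, which favours this direction, and the 20p13 region for its DMSO peak.

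In 10q22.1 and 8q24.12, both named for their DMSO RUNX1 peak, the intervals of the RUNX1 lists met. The first gap of chr10:73534175-73536343 (144 bp) held 2.19 fragments per M reads in AI-10-49 (69 fragments) and 1.78 (1.36 to 2.29) in DMSO (60 fragments), and the second gap of chr8:121020214-121022350 (184 bp) held 1.33 (0.960 to 1.80) and 1.27 (0.921 to 1.71). The authors' fold enrichment was 10.2 in AI-10-49 and 9.20 in DMSO in 10q22.1. In 8q24.12 it went the other way from the fragments, with 5.39 in AI-10-49 and 10.9 in DMSO, and the −log10 q was 13.4 and 29.0. H3K27ac was broken up there too. The 8q24.12 region had AI-10-49 summits of 0.676, 0.865 and 0.838 fragments per M reads, against 2.66 (2.15 to 3.25) in DMSO, and the 10q22.1 region 1.38, 1.60 and 0.865, the last at a summit beyond the end of the region, against 2.30 (1.83 to 2.85).

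In AI-10-49 only, a RUNX1 summit lay in a gap of a second region in 2p25.1, chr2:8720456-8724699, where gap 3 (152 bp) held 2.86 (2.30 to 3.51) RUNX1 fragments per M reads. In 5q31.2, the second gap of chr5:138852356-138856333 (121 bp) held 2.92 (2.35 to 3.58). In 7p12.2, the band of the lymphoid regulator gene IKZF1, the gap 3 of chr7:50304086-50308519 was 1124 bp wide and held 2.16 (1.68 to 2.74). It was the widest gap with a RUNX1 summit.

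Other named regions were chosen for H3K27ac alone. Those with the highest DMSO −log10 q lay in 17q25.1 (chr17:72742481-72746874), 22q11.23 (chr22:23862568-23865704, the band of BCR), 5q31.1 (chr5:131822821-131827303, the band of IRF1), 15q21.2 (chr15:50644149-50649133) and 3q29 (chr3:196335814-196340614). Their best AI-10-49 summits held 4.22, 3.73, 5.11, 9.14 and 4.46 fragments per M reads, in the order named, against 8.77, 8.66, 7.87, 9.58 and 7.31 in DMSO. In 15q21.2 the main AI-10-49 region (4505 bp) kept the summit at 0.954 of the DMSO value, and the gaps of 78 and 141 bp cut off only the edges. In 5q31.1 gap 3 (92 bp) held an AI-10-49 RUNX1 summit of 1.21 (0.853 to 1.65), and in 3q29 the first gap (115 bp) held a DMSO RUNX1 summit of 0.651 (0.408 to 0.986), while the AI-10-49 summit of 2.92 (2.35 to 3.58) lay in the neighbouring region. The 17q25.1 and 22q11.23 regions held no RUNX1 summit.

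The regions with most AI-10-49 regions had 6 or 5 of them, and 3 of the 5 named held no RUNX1 summit. Over all 32 regions with 5 or more, 14 held an AI-10-49 summit (43.8%). The named ones lay in 1p34.3 (chr1:35560358-35565047), 6p22.3 (chr6:15264346-15269040), 2q37.1 (chr2:234157429-234161374), 1q31.3 (chr1:197436109-197440105) and, with 5, the second region of 10q26.3. In 1p34.3 the AI-10-49 summits held 0.649, 0.649, 1.97, 1.05, 0.703 and 0.487 fragments per M reads from left to right, against 3.64 (3.04 to 4.33) in DMSO, and the highest lay 14 bp from the DMSO summit. In 2q37.1 they held 0.514, 0.811, 0.595, 0.973, 1.05 and 0.433, against 2.21 (1.75 to 2.76). None of the 4 regions with 6 had a RUNX1 summit in a gap, and 1 of them, in 1q31.3, had an AI-10-49 summit of 0.635 inside an AI-10-49 H3K27ac region.

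Regions with the most gap bases had 1503 to 2036 bp of gap. In 2q35, chr2:220070712-220075502 had 2036 bp of gap, most of it in 1 gap of 1796 bp, the widest of all. Regions in 7p12.2 (1758 bp, as above), 3p26.1 (chr3:7347254-7352000, 1754 bp), 6q23.3 (chr6:135738634-135741741, 1708 bp, the band of the progenitor regulator gene MYB) and Xp11.22 (chrX:53309156-53311746, 1503 bp) followed. In Xp11.22 the best AI-10-49 summit held 0.595 fragments per M reads, against 1.32 (0.968 to 1.75) in DMSO, and in 6q23.3 0.838 (0.569 to 1.19), against 1.18 (0.848 to 1.59), where the intervals met. Of these 5 the 7p12.2 region alone held a RUNX1 summit.

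Broken-up regions lay on all 24 chromosomes and in 482 of the 798 cytobands that had a DMSO region under 5000 bp. Their share ran from 1.03% (0.563 to 1.72) on chromosome 18 to 3.02% (2.03 to 4.31) on chromosome 21, leaving aside chromosome Y with 3 of 65 regions. The intervals of chromosomes 17 (2.32%, 1.83 to 2.90) and 21 lay wholly above the 1.75% of all regions, and those of chromosomes 7 (1.28%, 0.926 to 1.72) and 18 wholly below. These intervals are not adjusted for the number of chromosomes. The band with most was 17q11.2 with 11 of 317 regions (3.47%), followed by 20p13 and 17q25.3 with 10 each.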

How the data were processed

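Chromatin of ME-1 cells was precipitated for H3K27ac or RUNX1 and sequenced, per the labels, and groups were taken from sample titles. Peaks were listed per library in hg19, and tools named, with no roles, in the submitters' processing notes are MACS2 2.1.0, Picard 1.96, SAMtools 1.3, Bowtie2 2.1.0 and CASAVA 1.4. Which library served as control is not stated in the labels. Each deposited region carries a ratio (its summit's fold enrichment over local background) and −log10 values of p and q, all made by the authors. The deposited score was not used here.

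Gaps and overlaps (1 bp or more) were computed from interval ends with pandas 2.3.3, scipy 1.17.1 and numpy 2.4.6 under Python 3.11.15, and figures drawn with matplotlib 3.10.9. Fragments over a summit were solved from fold and −log10 p (Poisson background, pseudocount 1, whole fragment numbers), and 100% of summits in each list were solved within 0.003 on the −log10 p scale. Reads follow from the lowest background, the shortest region and a genome of 2700000000 bp (assumed). On simulated data 100% of fragment numbers were exact (1500 per list), and 0 of 800 overlap counts differed from bedtools 2.31.1. Members and lists were chosen with earlier results of these data known. Named regions were the 5 with most AI-10-49 regions, most gap bases or highest DMSO −log10 q, those with the 8 highest AI-10-49 or 5 highest DMSO RUNX1 peaks in a gap, and the 2 widest. Cytobands come from circlize 0.4.16. Genes, motifs and sequences were not analysed here, for lack of an hg19 annotation. Alternatives concerned overlap, thresholds, joining of close regions, width, number of AI-10-49 regions and the RUNX1 position.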

Additional observations from a re-analysis of the deposited data

How the results depend on the processing

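Among 72 values recomputed under alternatives, 46 remained within 1.5 times (counts), the 95% interval (shares) or the quartiles (the ratio of H3K27ac summits), and 26 did not. The RUNX1 share in gaps stayed above the gap share of bases in 12 of 13 settings for AI-10-49 and in 11 of 11 for DMSO, the reported one included and widening of gaps aside. The exception, joining AI-10-49 regions under 400 bp apart, left 11 regions with 1 RUNX1 summit. Point values were compared without intervals, and joining at 200 bp left only 24 AI-10-49 and 3 DMSO summits. Except where the setting removes regions, gaps or peaks by construction, the cause was not tested. Settings with a −log10 q of at least 5 in both H3K27ac lists were chosen after seeing the data.

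The count of 1157 regions came to 506 with AI-10-49 H3K27ac regions of −log10 q of at least 5 (505 with both lists so limited), 134 with regions under 200 bp apart joined, 11 with 400 bp, 703 under 3000 bp and 179 with 4 or more AI-10-49 regions. Regions with an AI-10-49 RUNX1 summit in a gap (8.04%) came to 9.88% and 9.90% with these q limits, 0% with 400 bp joined, 11.7% with 4 or more, 13.0% with gaps widened by 50 bp and 1.38% with the AI-10-49 RUNX1 list shortened to the DMSO length, which is below the 2.07% of DMSO. For DMSO summits (2.07%) joining at 400 bp gave 0%.

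Of AI-10-49 summits in these regions (31.6% in a gap), joining at 200 bp gave 41.7% of 24 and at 400 bp 0%. The share was 19.0% without a width limit, 44.4% with 4 or more, 50.3% with widened gaps and 37.2% with the shortened list. Gaps took 24.8% of the bases with 200 bp joined, 11.1% without a width limit and 18.3% with 4 or more. For DMSO summits (46.2%) joining at 200 bp gave 66.7% of 3, and no width limit 25.5%. No value could be had for DMSO with 400 bp joined, where 0 DMSO summits were left. Gaps with an AI-10-49 summit (3.76%) came to 4.84% and 4.85% with the q limits, 0% with 400 bp joined, 6.01% with widened gaps and 0.633% with the shortened list. No paired analysis was possible because only 1 library stood for each antibody and condition.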
